A study of Mus musculus with 60 samples.

Results

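The maturation of the normal mouse hippocampus after birth is described here from 10 WT libraries of week 8 set against 10 WT libraries of week 3, out of 60 libraries in the series. WT mice are wild type and carried no knock-in allele or treatment. The 20 libraries were chosen by their column labels in the raw count table, which give age, genotype and sex, and each age holds 5 libraries labelled female and 5 labelled male. RNA came from fresh frozen hippocampus and was depleted of ribosomal RNA before sequencing. Also used below are WT libraries of week 24 (10 libraries) and NLGF libraries of week 8 (10 libraries) and week 3 (3 libraries). NLGF mice bear humanised App with disease mutations in place of their own gene and serve as a model of amyloid disease. Nothing in the labels assigns each library an animal of its own, and the p-values below then cover only the scatter among these libraries, which may be technical.

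At week 3 a mouse is near weaning, and its hippocampus still adds granule neurons in the dentate gyrus, lays down myelin and refines its synapses. At week 8 it is a young adult. Oligodendrocytes arise from precursor cells, pass through a committed stage and then wrap axons in myelin, a membrane rich in cholesterol. The tissue is bulk, so fewer cells of a type and less RNA per cell cannot be told apart.

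The WT libraries held 19277174 to 28043028 counts at week 8 and 17786578 to 31802957 at week 3. Levels are given as CPM, read counts scaled to a common library total. Defining markers of the hippocampus were present at both ages: those of the CA fields summed to 1070 to 1600 CPM at week 8 and 1000 to 1560 CPM at week 3, and those of dentate granule cells to 568 to 1410 CPM at week 8 and 776 to 1140 CPM at week 3. Some libraries stood apart. On the first principal component, which held 16.6% of the variance, week 8 female 1 lay at -26.8, with the other week 8 libraries between -0.493 and 43.0, while the 5 males of week 3 lay between -32.5 and -20.6 and the 5 females of week 3 between -5.74 and 17.4. Mitochondrially encoded genes took 0.566% of the counts in week 8 female 1 and 1.14% to 3.39% in the other week 8 libraries, against 0.858% to 1.24% in the males of week 3 and 1.47% to 2.04% in the females of week 3. The counts of gene lists below are therefore also given without week 8 female 1 or without the males of week 3, wherever either moves a count by over 1.5 times. Without these males only 5 libraries of week 3 remain, and no fit left out only the females of week 3. For calls lost there, the smaller group and the absence of these males cannot be told apart.

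Of 16844 genes tested, 1202 differed between the ages (7.14%), with 443 higher (2.63%) and 759 lower (4.51%) at week 8, by edgeR's quasi-likelihood test with Benjamini-Hochberg adjustment at 0.05. The median size of a called change was 0.4 on the log2 scale, and 47 of the higher and 89 of the lower genes changed at least 2-fold. Every week 8 library lay above every week 3 library for 14 genes (0.0831%) and below every one for 65 genes (0.386%). The median log2 fold change of all genes tested was 0.0136, and 3386 of them were at an unadjusted p under 0.05 in edgeR. Signed values given below for a gene with no other unit are its log2 fold change of week 8 over week 3. Without week 8 female 1 the count was 2029 (909 higher and 1120 lower), of which 1178 were among the 1202. Without the males of week 3 it was 514 (165 higher and 349 lower), of which 395 were among the 1202. Of the called genes with an annotation, 91.9% of the higher and 96.5% of the lower ones were protein coding, against 92.4% of all those tested.

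**Figure D1:**
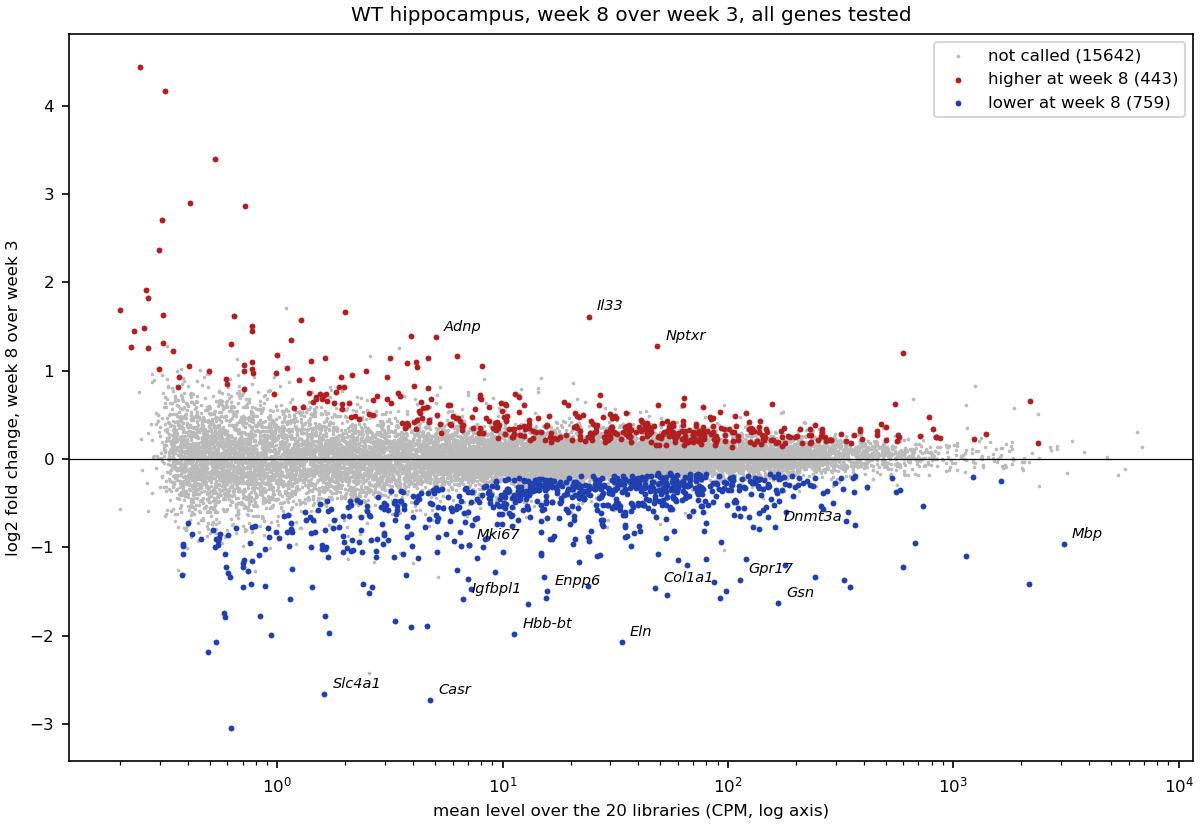
Log2 fold change of week 8 over week 3 (vertical axis) against mean level in CPM (horizontal log axis) for all 16844 genes tested, with 443 called higher in red, 759 called lower in blue and the rest in grey. More called genes lie below 0 than above it.

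Some genes of cell division were lower at week 8. Of 27 proliferation genes tested, 10 fell (37%, against 4.51% of all genes tested) and 0 rose, with a median log2 fold change of -0.462. Mki67 (chr7:135689784-135716361, mm10), a marker of dividing cells, was at 2.14, 4.58 and 7.15 CPM at week 8 and at 6.48, 9.67 and 12.4 CPM at week 3 (lowest, median and highest of 10 libraries). The ages overlapped only at the ends of their ranges, and the log2 fold change was -0.98 ± 0.147 (SE, adjusted p = 2.66e-05 in edgeR). Top2a, the topoisomerase that untangles replicated DNA, averaged 2.66 ± 0.758 CPM at week 8 and 5.78 ± 0.976 CPM at week 3 (SD, 10 libraries each). Cenpf, a kinetochore protein, and Pbk, a mitotic kinase, had log2 fold changes of -1.11 and -1.17. Rrm2, a subunit of the enzyme that makes deoxyribonucleotides, lay at 0.797 to 1.85 CPM at week 8 and at 2.15 to 4.06 CPM at week 3, so its groups did not overlap. Without week 8 female 1 the list had 14 genes lower, and without the males of week 3 it had 6.

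The promoters of the list were searched on both strands for TTTGAA, the core of the cell cycle homology region. The search covered the 250 bases before each gene start in RefSeq on GRCm38.p6. TTTGAA was found in 7 of 21 list genes with a window (33.3%), against 13.1% of 12291 tested genes. Of these 7, Mki67, Top2a, Ccnb2 and Kif11 fell, and Cdk1, Mcm2 and Prc1 were not called. The stretches of the genes that fell are shown because they moved together, in the direction of the gene, with 1 match in capitals (TTCAAA is the match on the other strand); the Mki67 stretch holds a further match in lower case. A match is a description and not a site of binding.
Mki67 (chr7:135716447-135716502, minus strand): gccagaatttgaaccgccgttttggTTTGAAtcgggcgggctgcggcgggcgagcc
Top2a (chr11:99024190-99024237, minus strand): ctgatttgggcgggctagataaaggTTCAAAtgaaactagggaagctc
Ccnb2 (chr9:70421691-70421746, minus strand): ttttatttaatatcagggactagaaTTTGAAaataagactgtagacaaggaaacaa
Kif11 (chr19:37376338-37376381, plus strand): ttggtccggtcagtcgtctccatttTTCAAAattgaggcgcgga

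Some genes of stem cells and immature neurons fell as well. Of 20 stem cell and radial glia genes, 4 fell (20%) and 0 rose (median -0.145). Of 28 immature neuron genes, 9 fell (32.1%) and 0 rose (median -0.203). Of all genes tested, 4.51% fell. Prom1, a membrane protein of stem cells, was at 10.9, 14.1 and 16.9 CPM at week 8 and at 19.5, 27.8 and 32.6 CPM at week 3, with no overlap (log2 fold change -0.91 ± 0.0853, adjusted p = 1.35e-08 in edgeR). Fabp7, the fatty acid binding protein of radial glia, averaged 16.7 ± 8.19 CPM at week 8 and 31.4 ± 10.1 CPM at week 3, and its log2 fold change was -1.66 in females and -0.31 in males. Lpar1, a lysophosphatidic acid receptor of stem cells that oligodendrocytes also make, had -0.89. The matrix protein Tnc had -0.69, a call lost in 8 of 20 fits with 1 library left out (adjusted p up to 0.0679).

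Igfbpl1 (chr4:45809468-45826923, mm10), a marker of newborn neurons, had the largest fall of the immature neuron list. It was at 1.26, 2.84 and 7.01 CPM at week 8 and at 5.1, 9.67 and 18.6 CPM at week 3, with overlap (log2 fold change -1.59 ± 0.3). Marcksl1, a regulator of actin, did not overlap between the ages and averaged 87.9 ± 11.2 CPM at week 8 and 137 ± 20.4 CPM at week 3. Sox11, a transcription factor of newborn neurons, averaged 45.4 ± 6.48 CPM at week 8 and 61.2 ± 10.1 CPM at week 3. Cd24a had a log2 fold change of -0.62, and its call was lost in 13 of 20 fits with 1 library left out (adjusted p up to 0.0828). Dcx, the microtubule protein of migrating neurons, averaged 23.8 ± 12.1 CPM at week 8 and 31.4 ± 5.12 CPM at week 3 and did not pass the test (log2 fold change -0.40 ± 0.18, adjusted p = 0.199). Week 8 male 5 held the highest value, 55.6 CPM, and without it the log2 fold change of Dcx was -0.63 (adjusted p = 0.00204 in edgeR). Without the males of week 3 the immature list had 5 genes lower, and Igfbpl1 and Draxin were no longer called.

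**Figure D2:**
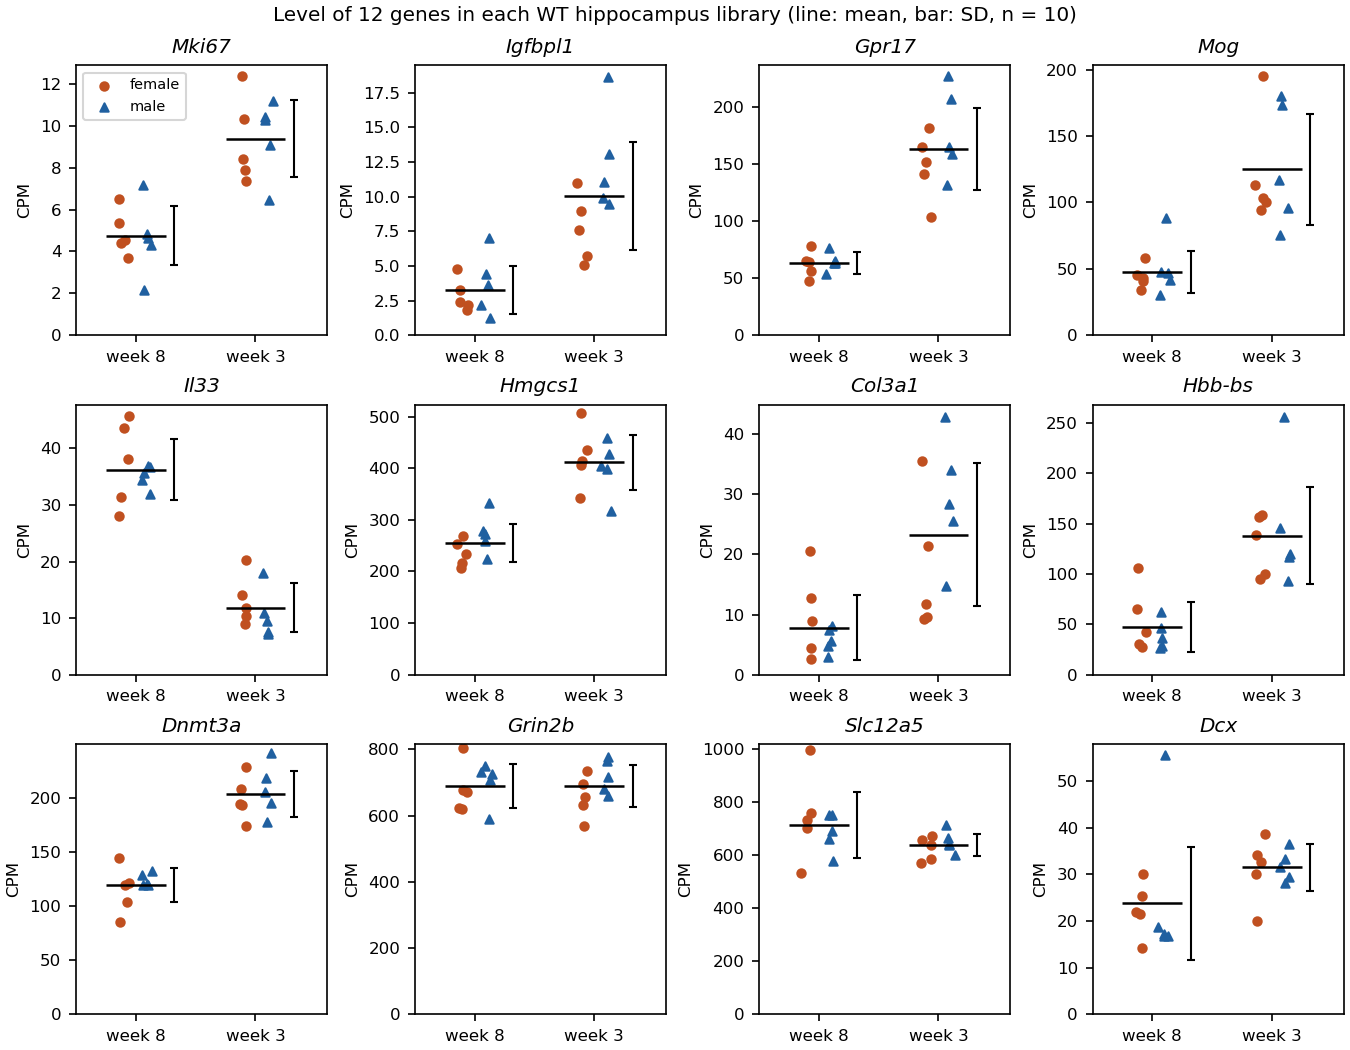
Level in CPM (vertical axes) of 12 genes in each WT library of week 8 (left) and week 3 (right), with females as circles, males as triangles, the mean as a line and the SD as a bar (n = 10 each). Gpr17, Il33 and Dnmt3a show no overlap of the ages, and Grin2b lies at about the same level at both.

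Most listed genes of the oligodendrocyte lineage were lower at week 8, from precursors to myelin. Of 22 genes of precursors and committed cells, 13 fell (59.1%) and 0 rose (median -0.456). Of 28 myelin genes, 17 fell (60.7%) and 2 rose (median -0.692). Of all genes tested, 4.51% fell. Pdgfra, the growth factor receptor of precursors, averaged 74.5 ± 6.64 CPM at week 8 and 95.5 ± 8.25 CPM at week 3, a small fall (log2 fold change -0.36 ± 0.0609, adjusted p = 0.000157 in edgeR). Gpr17, a receptor of committed cells, was at 47.2, 63.9 and 78 CPM at week 8 and at 104, 162 and 228 CPM at week 3. No week 8 library reached the lowest of week 3, and the log2 fold change was -1.37 ± 0.104 (adjusted p = 3.16e-10); its gene lies within Lims2, on the other strand. Enpp6, a phosphodiesterase of newly formed oligodendrocytes, and Zfp488, a transcription factor of the lineage, had -1.50 and -1.36, and Zfp488 did not overlap. Bmp4, a signal made by committed cells, averaged 2.64 ± 0.951 CPM at week 8 and 5.25 ± 2.12 CPM at week 3, and its call was lost without the males of week 3, when 9 genes of the list fell. The transcription factors Olig1, Olig2, Sox10 and Myrf had log2 fold changes of -0.79, -0.49, -0.49 and -0.51.

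In females alone 13 myelin genes fell and 1 rose, and in males alone 14 fell and 2 rose. Mbp, the basic protein that compacts myelin, was at 1472, 2026 and 3357 CPM at week 8 and at 2787, 3498 and 6496 CPM at week 3 (log2 fold change -0.97 ± 0.152), with -1.01 in females and -0.92 in males. Mog, a protein of the outer myelin surface, was at 30.5, 44 and 88.2 CPM at week 8 and at 75.6, 108 and 195 CPM at week 3. The ages overlapped for both genes, and the highest Mog value of week 8 belonged to male 5. Mal, a raft protein, and Ugt8a, which makes the myelin lipid galactosylceramide, had -1.45 and -1.50. Mag and Cnp, proteins of the inner layers, did not overlap between the ages (-1.37 and -1.23), nor did Gsn, an actin-severing protein (-1.63). Summed over the list, the level was 4320 to 9750 CPM at week 8 and 7970 to 19900 CPM at week 3.

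The 2 myelin list genes that rose were Il33 and Qdpr. Il33 (chr19:29925114-29960718, mm10), an alarmin of oligodendrocytes and astrocytes, was at 28, 36.2 and 45.8 CPM at week 8 and at 7.24, 10.7 and 20.2 CPM at week 3. Each week 8 library lay above each week 3 library (log2 fold change 1.61 ± 0.151, adjusted p = 1.52e-08 in edgeR). Qdpr, an enzyme that recycles tetrahydrobiopterin, averaged 142 ± 23 CPM at week 8 and 98.4 ± 23 CPM at week 3.

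Most genes of sterol synthesis were lower at week 8. Of 26 genes, 18 fell (69.2%, against 4.51% of all genes tested) and 0 rose (median -0.443). The 26 genes summed to 1380 to 1730 CPM at week 8 and 1850 to 2380 CPM at week 3, without overlap. Hmgcs1 (chr13:119690379-119708260, mm10), an early enzyme of the path, was at 208, 256 and 332 CPM at week 8 and at 318, 409.7 and 508 CPM at week 3 (log2 fold change -0.70 ± 0.0802, adjusted p = 3.25e-07 in edgeR). Cyp51, the lanosterol demethylase, did not overlap between the ages (-0.72), and Idi1, an isomerase of the isoprenoid steps, had -0.70. Females alone had 9 genes lower and males alone 18, and without the males of week 3 there were 14. Of 18 fatty acid genes 5 fell (27.8%, against 4.51% of all genes tested) and 0 rose (median -0.155). Elovl1 and Elovl6, which lengthen fatty acids, had -1.09 and -0.60, Scd2, a desaturase, -0.24, and Slc25a1, the citrate carrier, -0.35.

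The sterol regulatory element TCACNCCAC was searched in the same RefSeq windows, on both strands. It was found in 1 of 18 sterol genes (5.6%), against 1.2% of 12291 tested genes. The match is in Hmgcs1, shown because it is the list gene with a match and it fell, with the element in capitals.
Hmgcs1 (chr13:119690189-119690247, plus strand): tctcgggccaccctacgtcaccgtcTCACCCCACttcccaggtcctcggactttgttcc

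Some genes of collagens and elastic fibres were lower. Of 29 genes of collagens, laminins and elastic fibres, 12 fell (41.4%, against 4.51% of all genes tested) and 0 rose (median -0.613). Eln (chr5:134702593-134747323, mm10), the elastin of arteries, was at 4.1, 12.9 and 21.2 CPM at week 8 and at 21, 45.9 and 108 CPM at week 3, which barely overlapped (log2 fold change -2.07 ± 0.314, adjusted p = 5.38e-05 in edgeR). Col4a1, a collagen of the vessel basement membrane, was at 41.4, 47.1 and 75.7 CPM at week 8 and at 79, 108 and 162 CPM at week 3, with no overlap. Col1a1 and Col3a1, collagens of fibroblasts, had log2 fold changes of -0.70 and -0.84 in females and -2.16 and -2.33 in males. Females alone had 4 genes of the list lower and males alone 19, and without the males of week 3 there were 4. Mural cell and meningeal fibroblast markers had 0 of 19 genes called in edgeR, DESeq2 and voom (3 at an unadjusted p under 0.05), with 2 called lower without week 8 female 1, and their sum was 326 to 913 CPM at week 8 and 423 to 727 CPM at week 3.

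Of 26 endothelial genes, 3 fell (11.5%, against 4.51% of all genes) and 0 rose (median -0.179). Kdr, the main receptor of VEGF, averaged 23.7 ± 5.43 CPM at week 8 and 34.2 ± 8.57 CPM at week 3, Mfsd2a, a lipid transporter of the blood-brain barrier, averaged 15.6 ± 4.52 CPM at week 8 and 23.5 ± 4.49 CPM at week 3, and Ly6a had a log2 fold change of -0.56. This count was 5 without week 8 female 1 and 1 without the males of week 3. Of 12 blood genes 6 passed the filter on low counts, and all 6 of these fell (100%, against 4.51% of all genes tested, median -1.56). A gene can pass this filter through the age where it is high, which favours that share. Hba-a1, Hba-a2, Hbb-bs and Hbb-bt are among the 6. Slc4a1, the anion exchanger of red cells, was at 0.174 to 0.826 CPM at week 8 and at 1.76 to 4.39 CPM at week 3. Hbb-bs, a beta globin, was at 26.9, 39.4 and 106 CPM at week 8 and at 93.5, 129 and 256 CPM at week 3, and Hbb-bt and Hba-a1 had log2 fold changes of -1.98 and -1.54. Reads may have been split between Hbb-bs and Hbb-bt, and between Hba-a1 and Hba-a2, which are near-identical copies, so single values are uncertain. The blood genes summed to 52.8 to 215 CPM at week 8 and 154 to 552 CPM at week 3, and the part of blood in the vessel and matrix values was not tested.

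Some listed genes of perineuronal nets and brain matrix were lower in RNA level. Tnr, Ptprz1 and Tnc of this list are also in the precursor or stem cell lists. Of 20 genes of perineuronal nets and brain matrix, 8 fell (40%) and 1 rose (5%), against 4.51% and 2.63% of all genes tested (median -0.299). Adamts4, a protease that cuts matrix proteoglycans and is made by oligodendrocytes, was at 25.1 to 58.3 CPM at week 8 and at 67.1 to 132 CPM at week 3, and reads of overlapping genes could not be separated there. Chst3, which sulfates chondroitin, did not overlap either (-0.99 ± 0.104), and the proteoglycan Vcan averaged 22.8 ± 4.76 CPM at week 8 and 32.8 ± 5.19 CPM at week 3. Acan, the core proteoglycan of the nets, averaged 8.38 ± 2.3 CPM at week 8 and 12 ± 3.45 CPM at week 3, and its call was lost in 12 of 20 fits with 1 library left out (adjusted p up to 0.0797). Hapln4, a link protein, was the member that rose (0.47). Without the males of week 3 the list had 3 genes lower. Of 38 axon guidance genes, 4 fell (10.5%, against 4.51% of all genes tested) and 0 rose (median -0.00114). Those that fell were the semaphorin Sema3c (-0.50), the netrin receptor Unc5b (-0.44), the ephrin receptor Ephb1 (-0.44) and the ephrin Efnb3 (-0.30, lost in 9 of 20 fits). Without the males of week 3 this count was 0.

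In the main fit, the receptor, channel and synaptic lists held smaller shares of calls than the 7.14% of all genes tested. In edgeR, DESeq2 and voom, 0 of 28 glutamate receptor genes and 0 of 21 GABA genes were called, with medians of 0.063 and 0.092. At an unadjusted p under 0.05 in edgeR were 4 and 8 of them, against 3386 of all 16844 genes tested. The GABA share there was above that of all genes. Grin2b, the NMDA receptor subunit of young synapses, averaged 691 ± 66.3 CPM at week 8 and 689 ± 63.7 CPM at week 3 (log2 fold change 0.0046 ± 0.0669). Grin2a, the subunit that gains weight in older synapses, averaged 371 ± 91.3 CPM at week 8 and 372 ± 67.4 CPM at week 3. Grin1, Gria1 and Gria2 had log2 fold changes of 0.08, -0.02 and 0.12, none called. Slc12a5, the chloride exporter of mature neurons, averaged 715 ± 125 CPM at week 8 and 638 ± 42.8 CPM at week 3 (adjusted p = 0.236 in edgeR). Slc12a2, the chloride importer, averaged 122 ± 34.8 CPM at week 8 and 165 ± 38.9 CPM at week 3 (adjusted p = 0.117), and passed at -0.52 without week 8 male 5 (adjusted p = 0.048) and at -0.50 without week 3 male 3 (adjusted p = 0.0497).

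The GABA receptor subunits Gabra2, Gabra5 and Gabrd had log2 fold changes of 0.03, 0.09 and 0.37. None of these passed the test. Without week 8 female 1 the GABA list had 5 genes higher. Of 36 voltage-gated channel genes 2 rose and 0 fell (median 0.0556). Among those that rose, Hcn2, a channel opened by hyperpolarisation, had 0.31, a call that was lost in 8 of 20 fits with 1 library left out (adjusted p up to 0.0727), and the list had 0 genes higher without the males of week 3. The sodium channels Scn1a, Scn3a and Scn8a and the potassium channel Kcnc1 had 0.14, -0.07, 0.11 and 0.08 and were not called. Of 31 synaptic genes 1 rose and 0 fell (median 0.081): Snap25, a vesicle fusion protein, averaged 1523 ± 184 CPM at week 8 and 1256 ± 150.4 CPM at week 3 (0.28 ± 0.0726, adjusted p = 0.0137), and lost its call without the males of week 3. The scaffold Dlg4 had -0.04 and was not called. Without week 8 female 1 the synaptic list had 5 genes higher. In that fit the shares of the GABA and synaptic lists exceeded that of all genes tested (2029 of 16943).

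Among markers of neuron types, 8% of the interneuron and 12.5% of the dentate granule genes were called, against 7.14% of all genes tested. Of 25 interneuron genes, Nos1, nitric oxide synthase, had 0.36 and Sox6, a transcription factor, had -0.23, calls lost in 10 and 6 of 20 fits with 1 library left out and both lost without the males of week 3; Pvalb and Sst had -0.03 and 0.08 and were not called. Of 16 dentate granule genes 2 rose (median -0.074): the cation channel Trpc6 averaged 23.4 ± 5.14 CPM at week 8 and 15.3 ± 1.39 CPM at week 3, and the kinase Plk5 averaged 14.2 ± 4.9 CPM at week 8 and 8.56 ± 2.9 CPM at week 3, with its call lost in 5 of 20 fits. Leaving out the males of week 3, 3 genes of the list rose. CA field genes had 0 of 17 called in edgeR, DESeq2 and voom (0 at an unadjusted p under 0.05). Of 23 immediate early genes, which respond to activity, 0 were called by these tools (6 at an unadjusted p under 0.05), with a median log2 fold change of 0.327, 0.636 in females alone and 0.0993 in males alone. Of 27 growth factor and neuropeptide genes 1 rose (3.7%, against 2.63% of all genes tested). The gene was Nptxr (chr15:79786351-79804766, mm10), a receptor of neuronal pentraxins. Nptxr was at 49.1, 65.1 and 100.1 CPM at week 8 and at 1.96, 31.5 and 47.1 CPM at week 3, with no overlap (log2 fold change 1.27 ± 0.295). Without week 8 female 1 the list also had 1 gene lower. Bdnf, the neurotrophin, averaged 33.4 ± 3.57 CPM at week 8 and 32.8 ± 3.68 CPM at week 3 and was not called.

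**Figure D3:**
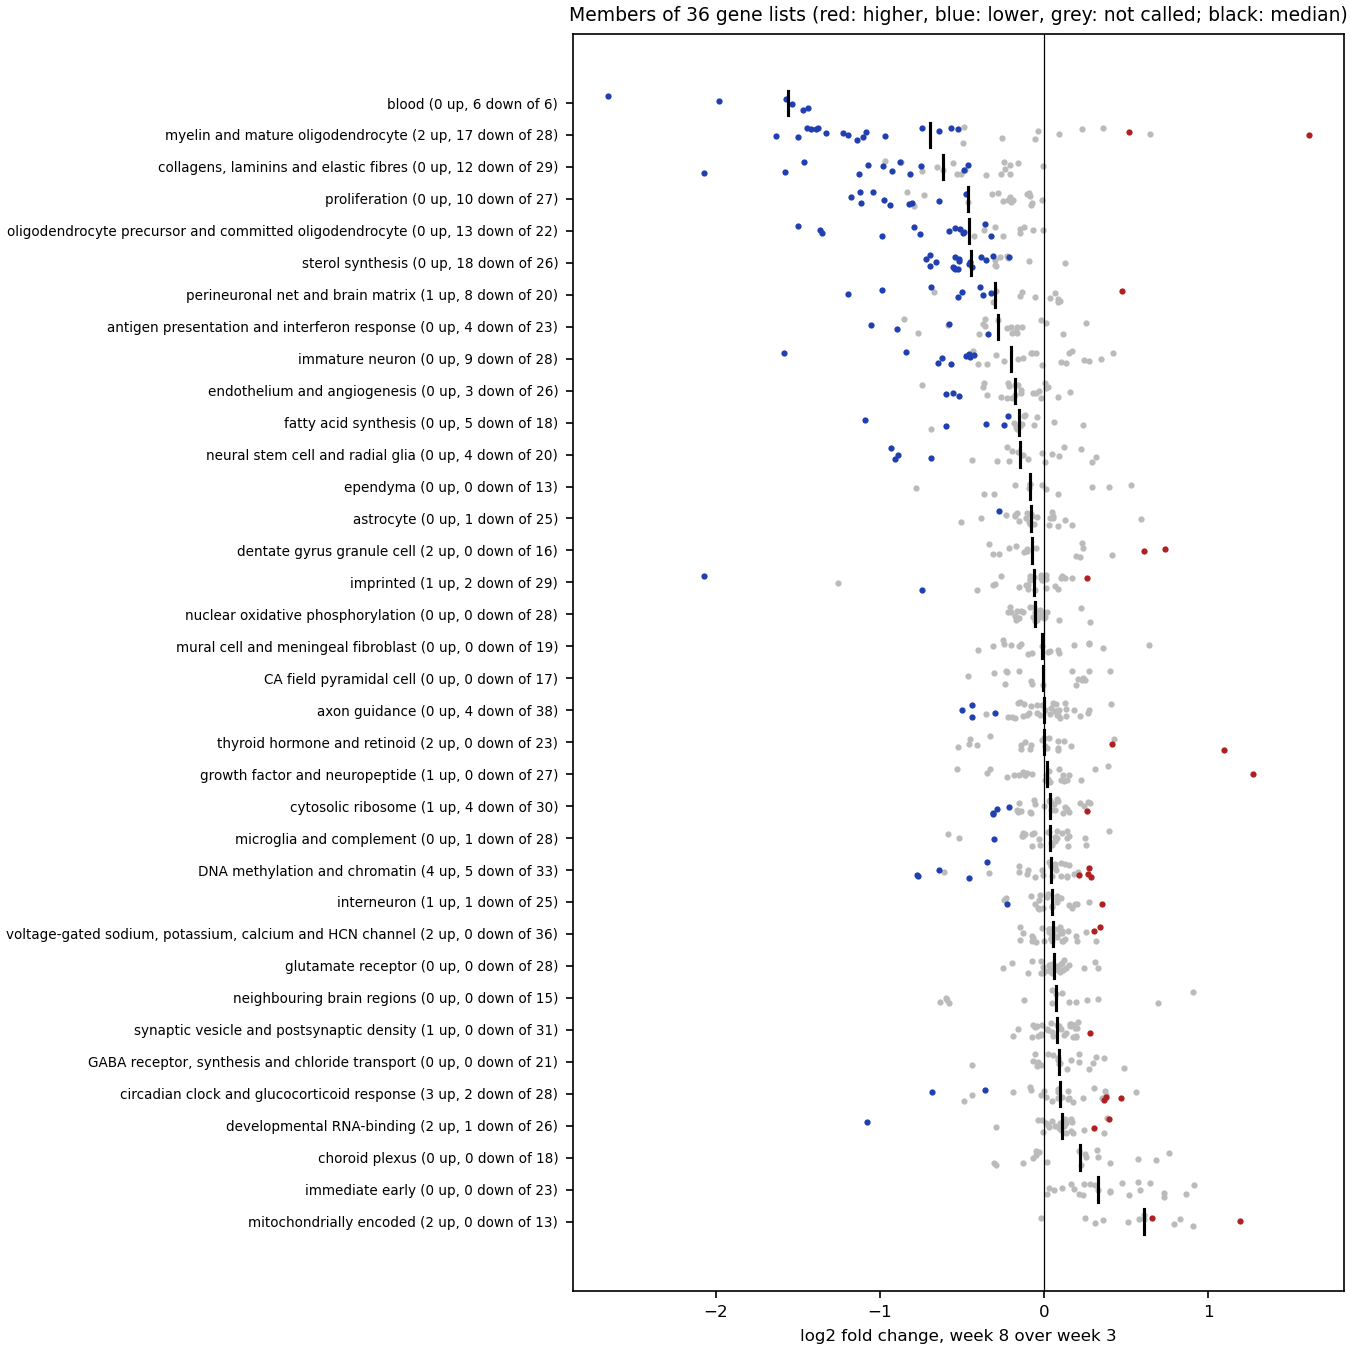
Log2 fold change of week 8 over week 3 (horizontal axis) for each tested member of 36 gene lists (rows, sorted by median), red for higher, blue for lower, grey for not called and a black tick for the median. The blood, myelin, collagen, proliferation, precursor and sterol lists lie mostly below 0, and the receptor, channel and synaptic lists lie close to 0.

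Several enzymes of DNA methylation were lower at week 8. Of 33 genes of DNA methylation and chromatin, 5 fell (15.2%) and 4 rose (12.1%), against 4.51% and 2.63% of all genes tested (median 0.0454). Dnmt3a (chr12:3806007-3914443, mm10), which sets new methylation in postnatal neurons, was at 85.1, 119.9 and 144 CPM at week 8 and at 174, 199.9 and 241 CPM at week 3. The ages did not overlap (log2 fold change -0.77 ± 0.0754, adjusted p = 1.97e-08 in edgeR), and the change was -0.80 in females and -0.74 in males. Tet1 and Tet3, which oxidise methylcytosine, had -0.64 and -0.46, and Hmgb2, a chromatin protein of dividing cells, had -0.77. The members that rose were Kmt2a, Smarca2, Hdac9 and Ezh1, by 0.27, 0.29, 0.28 and 0.21. With the males of week 3 left out, 5 genes of the list fell and 2 rose.

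Of the imprinted genes 10.3% were called, and of the developmental RNA-binding genes 11.5%, against 7.14% of all genes tested. Of 29 imprinted genes, 2 fell and 1 rose: H19, a noncoding RNA of growing tissue, had 47 counts over the 10 week 8 libraries and 208 over the 10 week 3 libraries, Ddc, a decarboxylase, had -0.74, and Peg13, a noncoding RNA that lies within Trappc9, had 0.26. Igf2, Dlk1 and Peg3 had -0.31, -0.10 and -0.10 and were not called. Of 26 RNA-binding genes 2 rose and 1 fell: Rbfox3, the protein also called NeuN, averaged 289 ± 34.5 CPM at week 8 and 234 ± 17.1 CPM at week 3, the splicing regulator Celf4 had 0.39, and Igf2bp2, which binds growth factor mRNA, had -1.08. Igf2bp3 and Lin28b had 0.17 and 0.38 and were not called. With the males of week 3 left out, 1 imprinted gene fell and 0 rose, and 1 RNA-binding gene fell and 0 rose. Without week 8 female 1 the RNA-binding list had 4 genes higher.

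Of the astrocyte and microglia lists 4% and 3.57% of genes fell, and of the antigen presentation and interferon list 17.4%, against 4.51% of all genes tested. Of 25 astrocyte genes 1 fell, the connexin Gjb6 (-0.27, lost in 5 of 20 fits with 1 library left out), and Aqp4 and Gfap had -0.09 and -0.07. Of 28 microglia and complement genes 1 fell, the receptor Fcrls (-0.30, lost in 8 of 20 fits). Neither list had a call without the males of week 3, and 4 astrocyte genes fell without week 8 female 1. P2ry12 had 0.14 and was not called. C4b had 0.39 and was not called (adjusted p = 0.0882 in edgeR), but passed at 0.46 without week 8 female 5 (adjusted p = 0.03 in edgeR). The highest C4b value of week 8, 70 CPM, was that of female 1, against a median of 37.6 CPM. Of 23 antigen presentation and interferon genes 4 fell and 0 rose (median -0.282): Rsad2 averaged 1.27 ± 0.349 CPM at week 8 and 2.66 ± 1.12 CPM at week 3, and Usp18, Oasl2 and Irf9 had -0.90, -0.58 and -0.34, calls lost in 3, 16 and 14 of 20 fits. This list had 1 gene lower without the males of week 3.

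Of 23 thyroid hormone and retinoid genes 2 rose and 0 fell, so 8.7% were called, against 7.14% of all genes tested. Thrb, a thyroid hormone receptor, averaged 65.4 ± 11.9 CPM at week 8 and 49 ± 8.23 CPM at week 3, and Aldh1a3, which makes retinoic acid, had 1.10. The list had 1 gene higher without the males of week 3, and 2 lower without week 8 female 1. Of 28 clock and glucocorticoid genes 3 rose and 2 fell (17.9% called, against 7.14% of all genes tested), and 4 fell without week 8 female 1. The repressors of the clock Nr1d1, Bhlhe40 and Bhlhe41 had 0.47, 0.38 and 0.36, and the sulfotransferase Sult1a1 had -0.68. Nr1d1 overlaps Thra on the other strand, and its log2 fold change was 0.74 in females and 0.18 in males. The labels used here give no hour of sampling.

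Mitochondrially encoded genes moved with single libraries. Of 13 genes 2 rose (15.4%, against 2.63% of all genes tested) and 0 fell (median 0.611). ND6 and ND5, subunits of complex I, had log2 fold changes of 1.197 and 0.66. The ND5 call was lost in 5 of 20 fits with 1 library left out. The count of higher genes was 8 without week 8 female 1 and 0 without the males of week 3, and the list summed to 6030 to 32900 CPM at week 8 and 8470 to 20000 CPM at week 3. Of 28 nuclear genes of oxidative phosphorylation 0 were called in edgeR and voom and 1 in DESeq2 (7 at an unadjusted p under 0.05), and 2 rose and 1 fell without week 8 female 1. Of 30 ribosomal protein genes 4 fell (13.3%) and 1 rose (3.33%), against 4.51% and 2.63% of all genes tested. Among those that fell, Rps2 and Rps4x had -0.31 and -0.29, and Rplp0 had -0.31 (lost in 9 of 20 fits). With the males of week 3 left out, 1 gene of the list fell and 0 rose, and 4 fell and 3 rose without week 8 female 1.

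Among single genes outside the lists was Casr (chr16:36493696-36562141, mm10), the calcium-sensing receptor. Gene models left out, Casr had the largest fall by fold of called genes with at least 1 CPM and the same sign in both sexes. It was at 0.403 to 2.56 CPM at week 8 and at 5.37 to 13.4 CPM at week 3, with no overlap (log2 fold change -2.73 ± 0.239, adjusted p = 5.35e-09 in edgeR). Rab7b, a vesicle GTPase, was at 1.05 to 3.28 CPM at week 8 and at 4.05 to 8.05 CPM at week 3, and Il12rb1, a cytokine receptor subunit, averaged 0.671 ± 0.276 CPM at week 8 and 2.71 ± 1.18 CPM at week 3. Neither overlapped between the ages. Slc45a3, a sugar transporter, Cldn14, a claudin, and Depdc1b had -1.83, -1.78 and -1.59.

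Among higher genes Hsf4, a heat shock transcription factor, was at 5.69, 8.66 and 11.2 CPM at week 8 and at 2.31, 3.87 and 5.24 CPM at week 3, with no overlap. The nucleosome-binding Hmgn5, the transcription factors Adnp and Cebpb, the netrin Ntn5, the hair protein Tchh and the protease inhibitor Serpinb1a had log2 fold changes of 1.39, 1.38, 1.05, 1.15, 1.09 and 1.04. Cebpb overlaps Tmem189 and Ntn5 overlaps Sec1, each on the other strand, and Hmgn5 and Ntn5 lost their calls without the males of week 3. Fbxw15, an F-box gene, had 140 counts over the 10 week 8 libraries and 7 over the 10 week 3 libraries, of which 6 had none. The noncoding gene 0610043K17Rik averaged 3.04 ± 0.728 CPM at week 8 and 0.951 ± 0.255 CPM at week 3, with no overlap, and it overlaps E130102H24Rik on the other strand.

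The age change differed between the sexes for some genes. In a test of the difference itself, 419 of 16844 genes passed in edgeR (3287 at an unadjusted p under 0.05), 330 with a higher change in males and 89 with a lower one. The count was 262 without week 8 female 1 and 1 with the 20 libraries of weeks 3 and 8 alone. The longest transcript had a median of 2688.5 bases in the 330 genes and 4380 in the 89, against 3347 in all genes tested. Draxin, an axon guidance protein of the immature neuron list, was the named gene that passed, with -1.40 in males and -0.21 in females (difference -1.19, adjusted p = 0.0495). The males of week 3 stand apart from the females of week 3, so a sex difference and a difference of these libraries cannot be told apart.

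**Figure D4:**
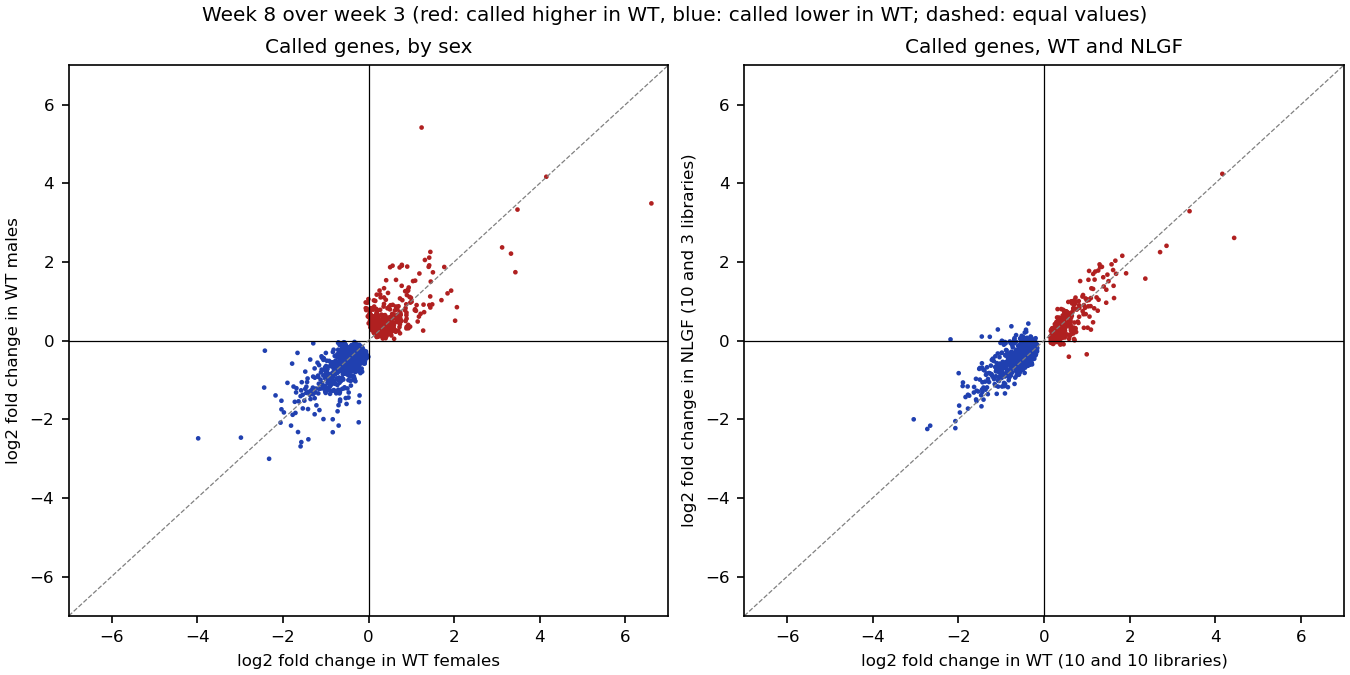
Log2 fold change of week 8 over week 3 of the genes called in WT, for females against males (left) and for WT against NLGF (right), with a line of equal values. The genes of the left panel were called on the same female and male libraries, which favours a shared sign there, and in the right panel 1149 of 1201 have the same sign in NLGF.

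From week 8 to week 24 few genes changed. The test called 47 of 16844 genes (0.279%), 6 higher and 41 lower at week 24, and this comparison shares the week 8 libraries with the one above. Mki67 averaged 9.38 ± 1.84, 4.75 ± 1.4 and 2.63 ± 0.418 CPM at weeks 3, 8 and 24, and fell in the second step as well (log2 fold change -0.85, adjusted p = 0.00762 in edgeR). Gpr17 averaged 163 ± 35.9, 63.3 ± 9.5 and 40.5 ± 3.74 CPM, and Dnmt3a 203 ± 21.3, 119 ± 16 and 91.5 ± 11.2 CPM, with -0.64 and -0.38 in the second step (adjusted p = 0.00501 and 0.0151). Mog, Hmgcs1 and Il33 had -0.27, -0.16 and 0.55 in that step and were not called. The proliferation list had 4 genes lower at week 24 than at week 8, the immature neuron list 8, the collagen list 4 and the myelin and sterol lists 0 and 0.

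**Figure D5:**
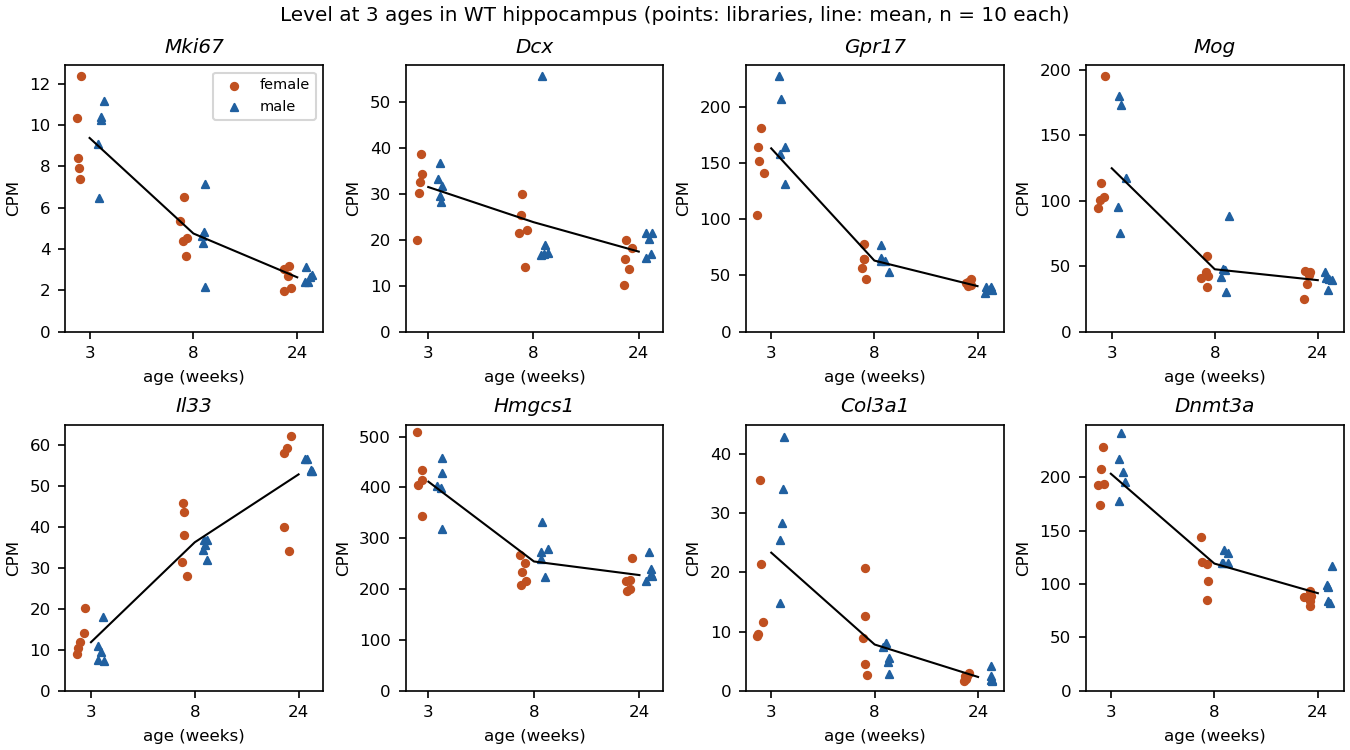
Level in CPM (vertical axes) of 8 genes in WT libraries at weeks 3, 8 and 24 (horizontal axes), with the means joined (n = 10 each). Mki67, Gpr17 and Dnmt3a are lower at each later age, and Mog and Hmgcs1 differ mainly between weeks 3 and 8.

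The same change was looked up in NLGF libraries, which share no sample with the WT ones; of week 3 only the 3 smallest libraries were used (19469508 to 33958537 counts), since the other 7 held 54026870 or more. There 1852 of 17970 genes were called (10.3%), 860 higher and 992 lower. The age field of 1 NLGF week 8 library conflicts with its title, and without that library 1293 genes were called. Of 1201 WT calls tested there, 1149 had the same sign (95.7%), as did 131 of the 135 that changed at least 2-fold in WT, against 11214 of 16836 genes tested in both. Dnmt3a, Mki67, Col4a1 and Il33 had log2 fold changes of -0.89, -0.85, -1.14 and 1.79 in NLGF and were called. Mbp, Mog and Casr had -0.68, -0.76 and -2.25 and were not called (adjusted p = 0.223, 0.238 and 0.0687 in edgeR). Of 28 myelin genes 10 had a higher value at week 8 in NLGF, with a median of -0.323 against -0.692 in WT. So did 18 of 18 choroid plexus genes (median 0.986) and 11 of 13 ependyma genes (median 0.428). The part of dissection in the NLGF values was not tested.

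Markers of choroid plexus, ependyma and neighbouring regions, which can be dissected along with the hippocampus, were not called in the main fit. With no filter 2 neighbouring-region genes rose. Of 18 choroid plexus, 13 ependyma and 15 neighbouring-region genes 0 were called in edgeR, DESeq2 and voom (0, 1 and 2 at an unadjusted p under 0.05), with medians of 0.22, -0.0828 and 0.0701. The choroid markers summed to 182 to 7800 CPM at week 8 and 241 to 6590 CPM at week 3, a wide spread within each age, and their main gene Ttr, the transthyretin of cerebrospinal fluid, had 0.02 ± 1.1. The ependyma markers summed to 11.3 to 69.4 CPM at week 8 and 14.4 to 64.9 CPM at week 3, and the neighbouring-region markers to 206 to 435 CPM at week 8 and 162 to 457 CPM at week 3. With a covariate made from these lists and the blood and mural ones, 16 myelin, 19 sterol, 11 collagen and 8 proliferation genes fell. None of these lists was made for neighbouring white matter, so its part in the myelin values was not tested. With this covariate 1 interferon gene and 2 ribosomal genes fell, 2 ribosomal genes rose, and 0 channel, 0 synaptic and 0 imprinted genes rose.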

How the data were processed

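Raw read counts per gene symbol were used as deposited by the authors, for 60 hippocampus libraries whose columns were all matched to samples by name. The submitters' processing notes name FastQC, STAR, edgeR, DESeq2 and mm10, with no versions. No source used here names the read counter, the annotation or the strand setting, so reads of overlapping genes cannot be separated. A deposited table of genotype comparisons was not used.

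Counts were fitted with edgeR 4.0.16 in R 4.3.3 over the 30 WT libraries, with sex and age as terms, filterByExpr (minimum count 10), TMM scaling and the robust quasi-likelihood test (2-sided, Benjamini-Hochberg over 16844 genes, threshold 0.05). Each SE was derived from the log2 fold change and the F value. CPM use TMM-scaled totals. The 20 libraries compared held 17786578 to 31802957 counts each. The terms of the sex difference and of NLGF mice were tested the same way. Alternatives were RLE, no scaling, DESeq2 1.42.0, voom (limma 3.58.1), other filters, sample sets and covariates, and each library left out.

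Named genes are, in each direction, the 10 called genes that changed most by fold (mean of at least 1 CPM, same sign in both sexes, no gene models), the 3 of each direction with the smallest p, up to 4 called members of each of 36 lists (887 entries, 24 not tested) and a set given whatever its values. Mag, Cnp, Olig1, Olig2, Sox10, Myrf, Qdpr, Hapln4, Kmt2a, Smarca2, Hdac9 and Ezh1 were added after their values were seen. The members and lists were chosen with earlier results of these data known. A few genes picked by this rule are not reported here. Gene positions are from GENCODE vM21 (GRCm38).

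On simulated counts for this comparison (16674 genes) the fit recovered 30% of the genes set to differ 1.25-fold, 80% at 1.5-fold and 98% at 2-fold. With 200 genes changed it made 9 false calls, and with no change it called 0 of 16688 genes. The simulation drew each gene on its own, without shifts shared by the genes of a library. Sex labels matched the data in 20 of 20 libraries.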

Additional observations from a re-analysis of the deposited data

Results flagged for a closer look

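In 32 of 260 sets of 10 libraries (a gene at an age), the highest or lowest library lay far from the other 9. The cut is such that about 1 in 20 sets of independent, normally distributed values would pass it. CPM need not be normal and the sets share the same 20 libraries, so the 32 cannot be set against that rate. Week 8 female 1 was high for C4b (70 CPM), Col4a1 (75.7 CPM), Dlg4 (1500 CPM), Draxin (4.13 CPM), Grin1 (512 CPM), Grin2a (619 CPM), Hcn2 (229 CPM), Mfsd2a (26.1 CPM), Scn8a (812 CPM), Slc12a5 (995 CPM) and Usp18 (1.43 CPM). It was low for Rps4x (101 CPM). The same library had the lowest mitochondrially encoded share of the 20, 0.566%, and the part of this in its values was not tested.

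Week 8 male 5 was high for Dcx (55.6 CPM), Enpp6 (16.7 CPM), Lpar1 (55.8 CPM), Mog (88.2 CPM), Rab7b (3.28 CPM) and Vcan (34.4 CPM). Week 8 female 3 was high for H19 (0.605 CPM), Hbb-bs (106 CPM), Hbb-bt (12.4 CPM) and Kdr (36.6 CPM). Week 8 female 5 was low for Nos1 (145 CPM), and week 8 male 3 was high for Pvalb (38.6 CPM).

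Week 3 female 5 was high for Ly6a (28.5 CPM), Oasl2 (7.99 CPM) and Rsad2 (5.59 CPM), and week 3 female 1 for Cenpf (6.71 CPM). Week 3 male 4 was high for Hbb-bs (256 CPM) and Hbb-bt (36.9 CPM), and week 3 male 5 for Rps4x (242 CPM). Week 3 female 3 was low for Usp18 (0.215 CPM).

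The age change differed between males and females in 419 genes by a test of the difference, and for Draxin males minus females was -1.19 on the log2 scale.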

How the results depend on the processing

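The 1202 calls (443 higher, 759 lower) were 252 against a fold of 1.2 (53 higher, 199 lower). They numbered 522 in females alone (176 higher, 346 lower) and 514 without the males of week 3 (165 higher, 349 lower). With the 20 libraries of weeks 3 and 8 alone there were 827 calls (272 higher, 555 lower). On these 20 a replicate block in place of the sex term gave 508 (128 higher, 380 lower). Higher genes numbered 783 with all 60, 833 in males alone and 780 with the mitochondrial covariate. With each library left out, 999 to 2029 genes were called (331 to 909 higher, 642 to 1120 lower), the most without week 8 female 1. RLE gave 1182 calls, no scaling 1259 and DESeq2 1480. The 419 sex differences were 189 with no filter, 1 with the 20 libraries, 910 with DESeq2 and 262 without week 8 female 1. The causes were not tested. Leaving out the males of week 3, the mitochondrial covariate and the 262 were chosen after seeing the data. Same-number correlations were -0.252 to 0.128 and 1 of 10 libraries matched its own number best. No pairing by number was seen, though these correlations cannot exclude one. Of 104 called named genes, 87 kept the call with each library left out, and 0 reversed in any alternative. Many of these were picked for a large change, a small p or a shared sign in both sexes, which favours both counts. Of all 1202 calls, 8 had opposite signs in females and males. No alternative was run for week 24.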
